A study of Homo sapiens with 6 samples.

Results

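MicroRNA host genes and snoRNA host genes are transcripts named for the small RNAs they carry. Of the 58735 gene rows of the expression table, 88 were taken by name alone, whether or not they held reads: 62 named as a microRNA host (MIR, a name, then HG), and 26 named as a snoRNA host (SNHG and a number) or GAS5. The name SNHG28 occurs on more than 1 row and both rows are counted. RNA was sequenced from T24 cells, an established line from a human bladder urothelial carcinoma with the labelled genotype WT, as 3 libraries of cells given 10 ng/ml of TGF-β1 over 48 h and 3 control libraries without the cytokine. All cells grew in medium with 10% serum, and the samples carry the time label day 2. The line is a single model, and no label tells whether the 3 samples of a group were grown as separate cultures. The p-values therefore measure only how far these samples spread, and that spread may be technical.

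A host gene is transcribed as a long precursor, and the small RNA is cut from its intron or exon while the rest is spliced into a non-coding transcript. MicroRNAs are released as hairpins by the nuclease DROSHA, trimmed by DICER1 and loaded on Argonaute proteins, where the seed near the 5′ end pairs with target messenger RNAs. Box C/D snoRNAs guide ribose methylation and box H/ACA snoRNAs guide pseudouridylation, mostly of ribosomal RNA. Many snoRNA hosts begin transcription in a run of pyrimidines, as ribosomal protein genes do, and their spliced transcripts are often degraded by nonsense-mediated decay. TGF-β1 is a secreted cytokine that signals through SMAD transcription factors, and the miR-200 family is known to restrain the ZEB factors of epithelial-to-mesenchymal transition.

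Selected mature microRNAs of the microRNA hosts tested below show part of what each host carries, and which hosts carry the same targeting sequence. They are from the RefSeq annotation of GRCh38.p14, written 5′ to 3′, with the seed (bases 2 to 8) in capitals.
hsa-miR-181a-5p: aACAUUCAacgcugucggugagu
hsa-miR-181b-5p: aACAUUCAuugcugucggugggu
hsa-miR-210-3p: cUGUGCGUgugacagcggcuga
hsa-miR-146a-5p: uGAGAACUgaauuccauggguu
hsa-miR-22-3p: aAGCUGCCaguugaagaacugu
hsa-miR-137-3p: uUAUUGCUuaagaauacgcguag
hsa-miR-221-3p: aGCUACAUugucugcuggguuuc
hsa-miR-222-3p: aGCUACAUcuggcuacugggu
hsa-miR-4435: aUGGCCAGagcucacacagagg
hsa-miR-4458: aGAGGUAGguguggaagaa
hsa-let-7a-5p: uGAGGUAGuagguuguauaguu
MIR181A2HG carries miR-181a-5p and miR-181b-5p, which share their seed. The same mature sequences are also encoded in a second host, MIR181A1HG on chromosome 1. MIR222HG carries miR-221-3p and miR-222-3p, which share another seed. The let-7 seed recurs in 5 hosts, MIR100HG, MIR4458HG, MIR4500HG, MIR99AHG and MIRLET7BHG, and let-7a-5p is printed beside miR-4458 for that reason. Across the class, 93 microRNA genes lay within 60 hosts, and 88 of them were matched to 138 mature sequences with 123 distinct seeds.

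SNHG16 was the snoRNA host with the largest positive change, and its 3 box C/D snoRNAs are shown from GRCh38 with the GENCODE 29 coordinates. Capitals mark the run of 17 bases that all of them share.
SNORD1A: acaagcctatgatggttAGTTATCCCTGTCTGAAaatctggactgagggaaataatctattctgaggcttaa
SNORD1B: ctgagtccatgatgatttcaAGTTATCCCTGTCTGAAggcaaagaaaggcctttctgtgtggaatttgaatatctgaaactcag
SNORD1C: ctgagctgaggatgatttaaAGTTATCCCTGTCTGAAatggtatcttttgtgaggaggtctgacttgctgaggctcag
They lie on the plus strand at chr17:76561634-76561705, chr17:76561109-76561192 and chr17:76558791-76558868, inside SNHG16 at chr17:76557766-76565348.

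Start sites of 6 snoRNA hosts are shown as examples of sequence features that the names did not use. These 6 carry the features more often than the class does and are not typical of it. GAS5, SNHG1 and SNHG3, not shown, have neither the C start nor the TATAA counted below. Each line runs from 40 bases before the RefSeq start (GRCh38.p14) over the first 25 bases of the transcript, with any TATAA and the pyrimidine run that begins with C nearest the start in capitals.
SNHG12: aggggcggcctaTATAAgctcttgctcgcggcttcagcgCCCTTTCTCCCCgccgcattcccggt
SNHG5: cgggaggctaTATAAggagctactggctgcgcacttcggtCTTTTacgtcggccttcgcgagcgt
SNHG7: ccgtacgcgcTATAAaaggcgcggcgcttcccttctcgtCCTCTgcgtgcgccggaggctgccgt
SNHG19: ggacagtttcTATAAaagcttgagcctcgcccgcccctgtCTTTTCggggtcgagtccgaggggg
SNHG4: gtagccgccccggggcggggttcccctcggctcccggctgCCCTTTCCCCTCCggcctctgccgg
SNHG16: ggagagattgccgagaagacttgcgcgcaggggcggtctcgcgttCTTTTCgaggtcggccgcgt
SNHG4 and SNHG16 are on the plus strand, at chr5:139274061-139274125 and chr17:76557724-76557788. The others are on the minus strand, SNHG12 at chr1:28581849-28581913, SNHG5 at chr6:85678709-85678773, SNHG7 at chr9:136728160-136728224 and SNHG19 at chr16:2155334-2155398. A C at the start followed by at least 3 pyrimidines, read on the transcribed strand, was present at 7 of 21 snoRNA host starts in the RefSeq table (33.3%), at 2 of 62 starts of 47 microRNA hosts (3.23%) and at 1914 of all 35116 starts (5.45%). Among 30 protein-coding snoRNA hosts, mostly ribosomal protein genes, the share was 53.3%. TATAA between 20 and 40 bases before the start, on the same strand, stood at 5 of 21 snoRNA host starts (23.8%), at 4.84% of microRNA host starts and at 3.91% of all starts. CAGAC, letters of a SMAD binding element, searched on both strands over 300 bases, was in 57.1% of snoRNA host windows, 46.8% of microRNA host windows and 45.3% of all windows. CACGTG, the E-box letters bound by MYC, was in 4.76% of snoRNA host windows, 0.0% of microRNA host windows and 7.26% of all windows. These motifs were chosen after the sequences were seen, and a match describes letters, not a bound site.

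The libraries held 20724863 to 23704552 fragments assigned to genes, from 53591796 to 60200816 reads of which 93.5 to 95.5% mapped. For a gene with 2000 bp of exon, 3 fragments were worth 0.0625 to 0.0701 FPKM. Among TGF-β response genes used as a check, PMEPA1 rose and averaged 68.4 FPKM in TGF-β1 libraries and 14.1 FPKM in controls, and SMAD7 and SKIL also rose. The epithelial keratins KRT8 and KRT18 were abundant, KRT19, KRT5 and UPK3A were at 0 in all libraries, and CDH1 and EPCAM were near 0. Epithelial markers summed to 406 to 438 FPKM in TGF-β1 libraries and 469 to 636 FPKM in controls. The mesenchymal VIM and FN1 summed to 274.8 to 325 FPKM in TGF-β1 libraries and 177 to 189 FPKM in controls. Most of that shift was FN1, which averaged 158.5 FPKM with TGF-β1 and 54.5 FPKM in controls. VIM averaged 140.6 FPKM with TGF-β1 and 130.5 FPKM in controls, with a limma adjusted p of 0.59. The part of these shifts in the host gene results was not tested. The 7 urothelial markers summed to 1.98 to 2.16 FPKM in TGF-β1 libraries and 2.69 to 3.804 FPKM in controls. Blood and endothelial markers summed to 0.368 to 0.456 FPKM in TGF-β1 libraries and 0.449 to 0.574 FPKM in controls. Control 3 stood apart from its group: chi-square per degree of freedom on whole fragments was 14.6 to 24.3 between it and the TGF-β1 libraries, and 20.3 and 28.9 between it and the other controls. The TGF-β1 group was also spread, with 20.7 between TGF-β1 1 and TGF-β1 3. Counts of calls, and tests of the members described, are therefore given with and without it. Control 3 was singled out from these same values, for lying near the TGF-β1 libraries, so leaving it out favours calls. Calls over all genes went from 277 to 3280 without it, and were 330 or fewer without any other library. Results without control 3 are thus no independent support for a change.

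Most snoRNA hosts reached 1 FPKM in at least 3 libraries and most microRNA hosts did not. Of the 26 snoRNA host rows, 25 held at least 1 fragment in a library, 20 did so in all 6, and 16 (61.5%) reached the level needed for the test, 1 FPKM in at least 3 libraries. Of the 62 microRNA host rows, 37 held a fragment, 22 did so in all 6 libraries, 25 were at 0 throughout, and 8 (12.9%) were tested. Other long non-coding RNAs were tested in 3.93% of rows (627 of 15936), and all genes in 19.3%. The summed level of the microRNA hosts was 43.7, 44.5 and 44.7 FPKM in TGF-β1 libraries and 39.4, 38.2 and 44.1 FPKM in controls. Control 3 lay beside the TGF-β1 libraries and the other controls lay lower.

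**Figure D1:**
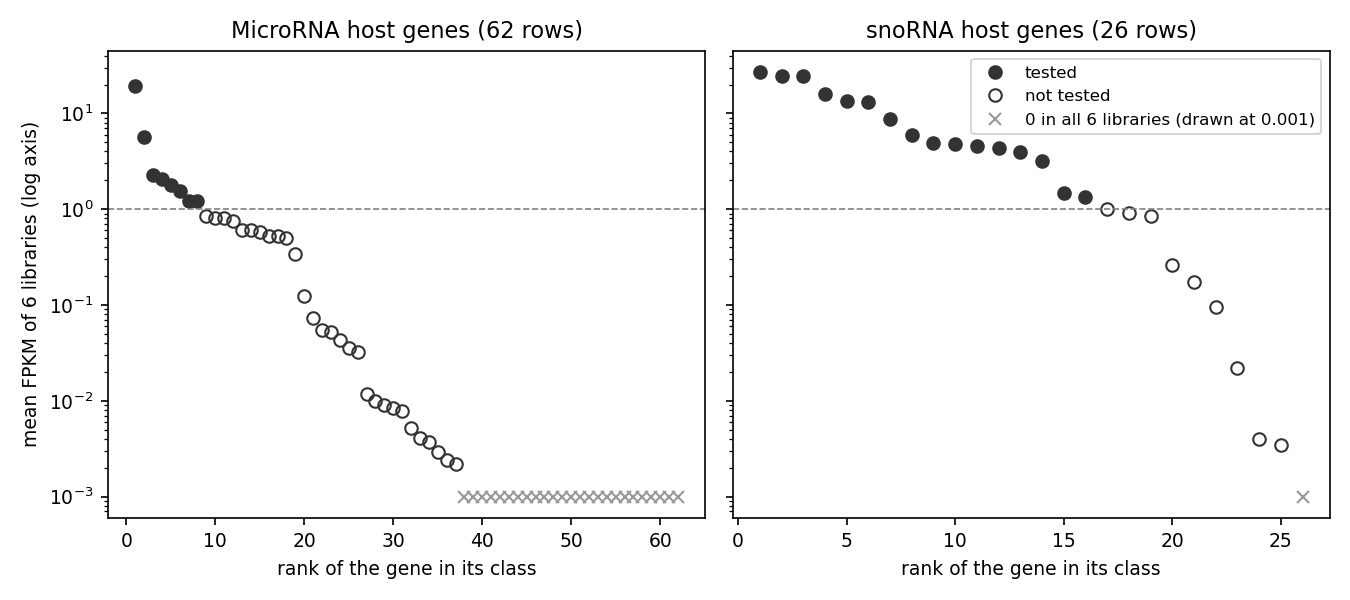
Mean FPKM over the 6 libraries (log axis) of every microRNA host row (left, 62) and snoRNA host row (right, 26), ordered by level within its class. Filled points were tested, open points were not, crosses are rows at 0 in all libraries drawn at a fixed height, and the dashed line is 1 FPKM: 8 microRNA hosts and 16 snoRNA hosts are filled.

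Among the 8 microRNA hosts tested by limma, MIR181A2HG alone passed an adjusted p of 0.05, higher with TGF-β1. Of all 11363 genes tested 2.44% passed, 1.14% higher and 1.29% lower. The median log2 change, on the log2(FPKM + 1) scale used throughout, was 0.08 over the 8 hosts and 0.01 over all genes tested, with 7 of the 8 values above 0. With a trend of GC content and gene length removed from each library, 3 of the 8 were above 0 and their median was -0.01; MIR137HG, MIR4435-2HG, MIR222HG and MIR4458HG then lay below 0. At an unadjusted p under 0.05 there were 2 members, against 25.1% of all genes. Without control 3 there were 3 calls, MIR181A2HG and MIR3142HG higher and MIR210HG lower, in a setting where 28.9% of all genes were called. By voom on whole fragments, which called 9.35% of all genes, no microRNA host passed. In RNA from a whole culture, a change in the share of cells that express a gene and a change in its RNA per cell cannot be told apart.

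MIR181A2HG, the host of miR-181a and miR-181b on chromosome 9, was at 2.12, 2.33 and 1.91 FPKM in TGF-β1 libraries and at 1.01, 0.934 and 1.05 FPKM in controls. Every TGF-β1 library lay above every control, as in 14.6% of all genes tested, and control 3 lay with the other controls. The means were 2.12 ± 0.211 FPKM with TGF-β1 and 0.998 ± 0.057 FPKM in controls (SD, n = 3 each), a ratio of 2.12. On the log2 scale the change was 0.64 (SE 0.10, 95% interval 0.42 to 0.86), with a limma adjusted p of 0.0068. Without control 3 it was 0.66, with an adjusted p of 0.0086. These levels rest on few fragments, 30, 37 and 30 in TGF-β1 libraries and 15, 14 and 16 in controls. With limma's voom on the whole fragments the change was 1.058 and the adjusted p 0.085, so that test did not call it. The level needed for the test was met only with its TGF-β1 libraries, as control 2 lay below 1 FPKM. With no filter on low values the limma adjusted p was 0.11, so it was not called. The gene lies at chr9:124658467-124698631 on the plus strand, with 662 bp of exon, and is annotated as antisense to NR6A1, an orphan nuclear receptor gene on the other strand. The annotated exons of the pair share 0 bases, and NR6A1 averaged 1.13 ± 0.162 FPKM with TGF-β1 and 1.21 ± 0.086 FPKM in controls, with a limma adjusted p of 0.73. The strand setting is not stated, and whether fragments from unspliced NR6A1 RNA were counted in MIR181A2HG was not tested.

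The other host of these microRNAs was nearly silent. MIR181A1HG held 8 fragments over the TGF-β1 libraries and 6 over the controls, and was not tested. The row of the MIR181A2 hairpin itself held 3 fragments in TGF-β1 2 and 0 in every other library. These libraries do not measure mature microRNAs, so whether miR-181 differed was not tested.

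MIR210HG carries miR-210, a microRNA known for its induction by hypoxia. It was at 1.47, 0.952 and 1.76 FPKM in TGF-β1 libraries and at 2.69, 2.38 and 1.58 FPKM in controls. TGF-β1 3 lay above control 3, so the groups overlapped, while controls 1 and 2 lay above every TGF-β1 library. Its log2 change was -0.43 (SE 0.16, 95% interval -0.79 to -0.07), with a limma adjusted p of 0.15. Without control 3 it was -0.58 with an adjusted p of 0.031, and after removal of that trend in GC content and length it was -0.17 with an adjusted p of 0.51.

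MIR3142HG, which also carries miR-146a, a brake on inflammatory signalling, was the most abundant microRNA host. It was at 20.1, 21.5 and 20.3 FPKM in TGF-β1 libraries and at 17.5, 15.5 and 20.1 FPKM in controls. Control 3 lay just above TGF-β1 1 and far from the other controls. Its log2 change was 0.22 (SE 0.11), with a limma adjusted p of 0.23 over all libraries, and 0.31 with an adjusted p of 0.030 without control 3.

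MIR22HG carries miR-22 in an exon, and was at 5.63, 5.71 and 6.05 FPKM in TGF-β1 libraries and at 5.25, 5.31 and 5.97 FPKM in controls. MIR222HG carries miR-221 and miR-222, which are known to repress the cell cycle inhibitor CDKN1B, and was at 1.21, 1.32 and 1.497 FPKM in TGF-β1 libraries and at 0.963, 1.08 and 1.305 FPKM in controls. In both genes the groups overlapped through control 3, which was the highest control. The log2 changes were 0.06 for MIR22HG and 0.15 for MIR222HG, with limma adjusted p-values of 0.67 and 0.39, and 0.11 and 0.21 without control 3, with adjusted p-values of 0.26 and 0.16.

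MIR137HG, the host of miR-137, was at 2.68, 2.19 and 2.30 FPKM in TGF-β1 libraries and at 2.20, 1.95 and 2.48 FPKM in controls. MIR4435-2HG, a long non-coding RNA with a closely related copy elsewhere on chromosome 2, was at 2.04, 2.34 and 2.03 FPKM in TGF-β1 libraries and at 1.85, 1.93 and 2.13 FPKM in controls. MIR4458HG, with the let-7 seed, was at 1.15, 1.31 and 1.31 FPKM in TGF-β1 libraries and at 1.01, 1.34 and 1.24 FPKM in controls. The groups overlapped in each case. Their log2 changes were 0.08, 0.08 and 0.04, with limma adjusted p-values of 0.64, 0.60 and 0.82. Without control 3 they were 0.14, 0.12 and 0.06, with adjusted p-values of 0.31, 0.33 and 0.72.

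**Figure D2:**
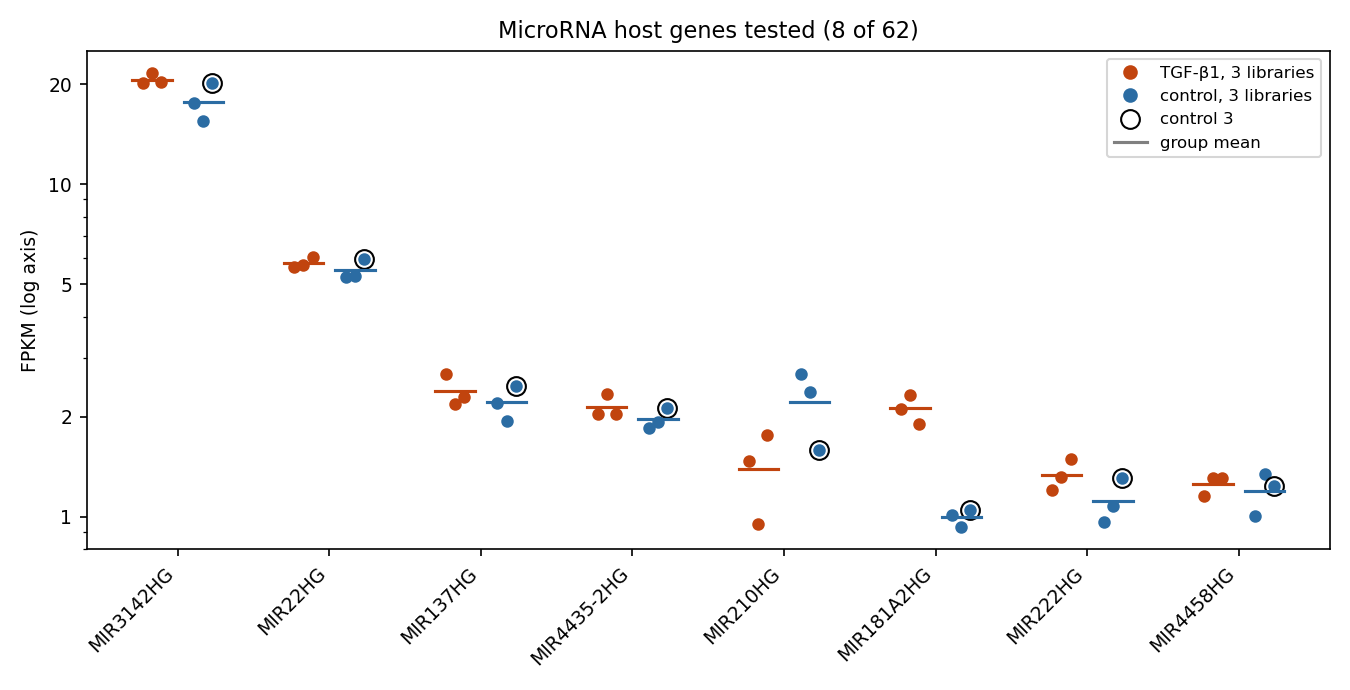
FPKM (log axis) of the 8 tested microRNA host genes in each library, TGF-β1 left and control right of each gene, with group means as lines and control 3 ringed. The groups do not overlap in MIR181A2HG alone of the 8, against 27.1% of all genes tested. Its TGF-β1 points lie between 1.91 and 2.33 FPKM and its control points between 0.934 and 1.05 FPKM.

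The remaining 54 microRNA hosts were below the level tested. MIR17HG, the host of the oncogenic miR-17-92 cluster, was at 0.455, 0.573 and 0.494 FPKM in TGF-β1 libraries and at 0.473, 0.354 and 0.620 FPKM in controls. MIR31HG, the host of miR-31, was at 0.502, 0.616 and 0.735 FPKM in TGF-β1 libraries and at 0.360, 0.593 and 0.813 FPKM in controls. Both genes had overlapping groups, with control 3 the highest control.
MIR34AHG, the host of the p53 target miR-34a, held 17 fragments over the TGF-β1 libraries and 25 over the controls. MIR205HG, the host of the epithelial miR-205, held 1 fragment over the TGF-β1 libraries and 0 over the controls. MIR155HG held 0 over the TGF-β1 libraries and 2 over the controls. MIR200CHG, which carries miR-200c and miR-141, was at 0 in all libraries. A count of 0 allows up to 3 fragments in a library, which for its 350 bp of exon is 0.375 FPKM. The 25 hosts at 0 also included MIR122HG, MIR1-1HG and MIR124-2HG, whose microRNAs are known from liver, muscle and neurons.

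When the filter was set in fragments (at least 10 in at least 3 libraries, a setting chosen after the data were seen), 21 microRNA hosts and 19 snoRNA hosts could be tested by voom. None of the microRNA hosts and 1 snoRNA host, SNHG16, passed, against 7.72% of the 14641 genes tested in that setting. MIR193BHG, the host of miR-193b and miR-365a, was at 0.896, 0.758 and 0.933 FPKM in TGF-β1 libraries and at 0.753, 0.526 and 0.694 FPKM in controls. Its TGF-β1 libraries all lay above its controls, as in 14.6% of the genes tested by limma, and it is named after its values were seen. The voom log2 change was 0.40 (95% interval -0.05 to 0.84), with an adjusted p of 0.25. MIR99AHG, the host of let-7c, miR-99a and miR-125b, lay lower in every TGF-β1 library, as did 12.5% of the genes tested by limma. It rested on 31 fragments over the TGF-β1 libraries and 53 over the controls, with a voom adjusted p of 0.32.

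No snoRNA host passed the limma test among the 16 tested, against 2.44% of all genes. The median log2 change was 0.00, with 8 values above 0 and 8 below and a range of -0.42 to 0.37, against a median of 0.01 over all genes tested. With every library set to the same FPKM sum, 12 of the 16 were above 0, and the medians were 0.07 for these hosts and 0.08 for all genes. At an unadjusted p under 0.05 there were 2, SNHG16 and SNHG19, against 25.1% of all genes. Without control 3 SNHG16 passed, against 28.9% of all genes, and voom on whole fragments also called SNHG16 alone, against 9.35%. The summed level of the class was 155, 160 and 179 FPKM in TGF-β1 libraries and 164, 172 and 161 FPKM in controls. The groups overlapped, with TGF-β1 3 the highest library and TGF-β1 1 the lowest.

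SNHG16, the host of the SNORD1 snoRNAs, was at 13.7, 15.5 and 15.7 FPKM in TGF-β1 libraries and at 10.4, 10.7 and 13.2 FPKM in controls. Every TGF-β1 library lay above every control, as in 14.6% of all genes tested, and control 3 was the nearest control to them. The means were 14.96 ± 1.13 FPKM with TGF-β1 and 11.4 ± 1.53 FPKM in controls (SD, n = 3 each), from 5565 fragments over the TGF-β1 libraries and 4181 over the controls. On the log2 scale the difference was 0.37 (SE 0.11, 95% interval 0.13 to 0.61), with a limma adjusted p of 0.095. It was 0.46 with an adjusted p of 0.012 without control 3, and 0.39 with an adjusted p of 0.036 by voom over all libraries. With the GC and length trend removed it was 0.29 with an adjusted p of 0.071.

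SNHG19, a short host of SNORD60 with 342 bp of exon, was at 5.74, 5.24 and 3.69 FPKM in TGF-β1 libraries and at 8.49, 6.46 and 5.69 FPKM in controls. TGF-β1 1 lay just above control 3, and the other libraries were separated by group. The change in log2 units was -0.42 (SE 0.16, 95% interval -0.79 to -0.05), with a limma adjusted p of 0.16 and of 0.065 without control 3. It was -0.18 with the GC and length trend removed.

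GAS5, a growth-arrest transcript studied as a tumour suppressor, had the highest mean of the class. It was at 24.03, 25.03 and 27.9 FPKM in TGF-β1 libraries and at 28.4, 29.5 and 27.4 FPKM in controls. TGF-β1 3 lay above control 3 and the other TGF-β1 libraries lay below every control. The log2 change was -0.15 (SE 0.09, 95% interval -0.35 to 0.06), with a limma adjusted p of 0.33 and of 0.16 without control 3.

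SNHG6 was at 21.3, 25.04 and 28.2 FPKM in TGF-β1 libraries and at 25.2, 26.3 and 22.6 FPKM in controls. SNHG3, the host of the SNORA73 snoRNAs, was at 22.4, 26.4 and 25.9 FPKM in TGF-β1 libraries and at 23.0, 24.4 and 23.6 FPKM in controls. The TGF-β1 libraries of both genes spanned the controls. The log2 changes of SNHG6 and SNHG3 were 0.00 and 0.07, with limma adjusted p-values of 0.99 and 0.66, and without control 3 they were -0.06 and 0.07, with 0.72 and 0.59.

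SNHG8, the host of SNORA24, was at 14.7, 12.97 and 19.6 FPKM in TGF-β1 libraries and at 14.9, 18.5 and 14.4 FPKM in controls. SNHG1, which carries a cluster of C/D snoRNAs that includes SNORD22, was at 13.2, 12.98 and 15.4 FPKM in TGF-β1 libraries and at 12.4, 13.4 and 13.9 FPKM in controls. SNHG4, the host of SNORA74A, was at 8.94, 8.06 and 9.28 FPKM in TGF-β1 libraries and at 8.38, 8.49 and 9.47 FPKM in controls. The groups overlapped in each of them. Their log2 changes were -0.03, 0.06 and 0.00, with limma adjusted p-values of 0.92, 0.72 and 0.98. Without control 3 they were -0.09, 0.10 and 0.05, with adjusted p-values of 0.715, 0.46 and 0.68.

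**Figure D3:**
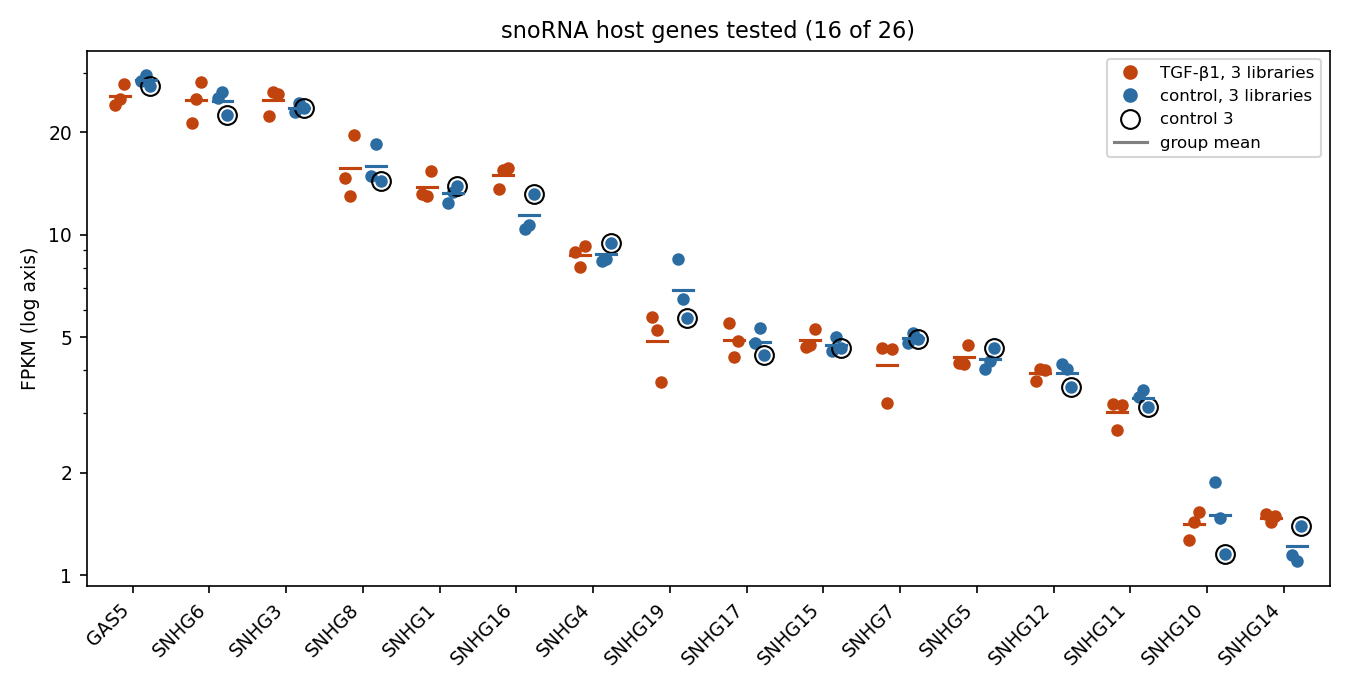
FPKM (log axis) of the 16 tested snoRNA host genes in each library, TGF-β1 left and control right of each gene, with group means as lines and control 3 ringed. The groups of SNHG16, SNHG14 and SNHG7 do not overlap, against 27.1% of all genes tested. SNHG16 lies at 13.7 to 15.7 FPKM with TGF-β1 and 10.4 to 13.2 FPKM in controls.

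The other 8 snoRNA hosts tested had log2 changes of -0.23 to 0.16. The groups did not overlap in 3 of the 16, SNHG16 and SNHG14 higher and SNHG7 lower with TGF-β1, against 27.1% of all genes tested, 14.6% higher and 12.5% lower. SNHG14, named after its values were seen, spans the imprinted SNORD115 and SNORD116 snoRNA arrays on chromosome 15. It was at 1.51, 1.43 and 1.49 FPKM in TGF-β1 libraries and at 1.15, 1.098 and 1.40 FPKM in controls. Control 3 lay just below the TGF-β1 libraries. The log2 change was 0.16 (SE 0.10), with a limma adjusted p of 0.31, was 0.22 with an adjusted p of 0.10 without control 3, and was -0.01 with the GC and length trend removed.
SNHG7, also named after its values were seen, carries SNORA17A and SNORA17B. It was at 4.64, 3.20 and 4.63 FPKM in TGF-β1 libraries and at 4.82, 5.16 and 4.95 FPKM in controls. TGF-β1 2 lay far below the rest. The log2 change was -0.23 (SE 0.12), with a limma adjusted p of 0.26 and of 0.24 without control 3, and was -0.01 with the GC and length trend removed.

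Among the 10 snoRNA hosts not tested, 3 lay near the level required. SNHG20 was at 0.929, 0.986 and 0.899 FPKM in TGF-β1 libraries and at 0.954, 0.995 and 1.32 FPKM in controls. SNHG9, the host of SNORA78 beside a ribosomal protein gene, was at 0.170, 0.908 and 0.841 FPKM in TGF-β1 libraries and at 1.38, 1.44 and 0.707 FPKM in controls. Control 3 lay below both of the higher TGF-β1 libraries. SNHG9 rested on 25 fragments over the TGF-β1 libraries and 44 over the controls, and its voom log2 change had a 95% interval of -2.22 to 0.19. SNHG26 was at 0.871, 0.635 and 0.801 FPKM in TGF-β1 libraries and at 0.629, 1.26 and 0.840 FPKM in controls. The remaining 7 rows, SNHG18, SNHG21, SNHG22, SNHG25, SNHG27 and both SNHG28, held at most 16 fragments over either group.

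An adjusted p above the threshold does not show that a gene was the same in both groups. The intervals give what the data allow on the log2(FPKM + 1) scale only, which understates fold changes of low genes. On that scale the 95% interval lay within 1 in either direction for all 24 tested members, as for 10940 of all 11363 genes. This does not exclude changes over 2-fold in FPKM: MIR181A2HG is among the 24, and its voom log2 change was 1.058. The interval lay within a 1.5-fold change on the fitted scale for 14 of 16 snoRNA hosts and 6 of 8 microRNA hosts, against 9330 of all 11363 genes. Those of SNHG16, SNHG19, MIR181A2HG and MIR210HG lay outside. Control 3 was nearer to the TGF-β1 mean than to the mean of the other controls for 12 of 16 snoRNA hosts, 7 of 8 microRNA hosts and 68.9% of all genes tested. MIR181A2HG was the microRNA host for which it was not.

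**Figure D4:**
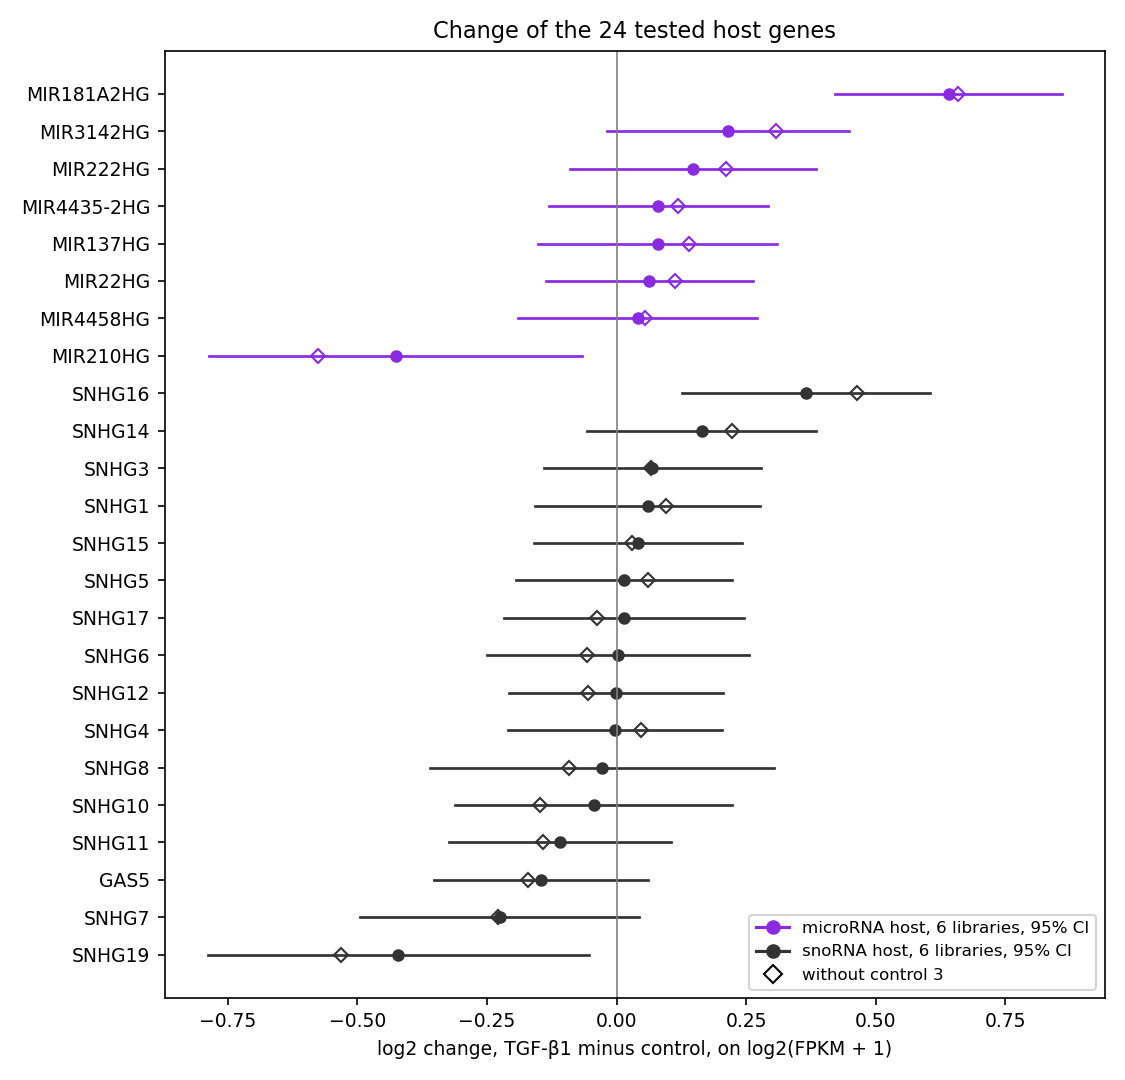
Change (TGF-β1 minus control on the log2(FPKM + 1) scale) of the 24 tested host genes with 95% intervals (filled), and the same without control 3 (open diamonds). Most intervals cross 0; those of MIR181A2HG and SNHG16 lie above it, at 0.42 to 0.86 and 0.13 to 0.61, and those of MIR210HG and SNHG19 below it.

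Some members share exonic bases with other rows, and neither the assignment of fragments there nor the strand setting is stated by the labels or the processing notes. MIR137HG shares 494 bp with DPYD on its own strand, SNHG3 shares 242 bp with RCC1 and SNHG4 shares 626 bp with MATR3. MATR3 averaged 0.0626 ± 0.0318 FPKM with TGF-β1 and 0.0463 ± 0.00864 FPKM in controls. SNHG20 shares 460 bp with SEC14L1 on its own strand, which averaged 32.7 ± 1.43 FPKM with TGF-β1 and 32.2 ± 0.623 FPKM in controls. SNHG7 shares 1094 bp with FAM69B on the other strand, which averaged 0.381 ± 0.246 FPKM with TGF-β1 and 0.848 ± 0.215 FPKM in controls. MIR4435-2HG shares 727 bp with BCL2L11 on the other strand. SNHG16 shares 1639 bp with a gene on the other strand that was listed at 0 in all libraries. SNHG14 shares 198 bp with UBE3A on the other strand. The values of these members are uncertain to that extent.

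The small RNAs themselves were barely counted. In the annotation used, 123 small RNAs were matched to 22 snoRNA hosts, of which SNHG14 has 83. None was matched to GAS5, and the count may be incomplete. None of the 32 rows whose small RNA lies in an annotated exon of a snoRNA host held a fragment, and none of the 30 such rows in microRNA hosts did. How fragments over both a host exon and a small RNA were assigned is not stated. These empty rows therefore do not show that the small RNAs were absent. Of the small RNAs in introns, 25 of 86 rows in snoRNA hosts and 8 of 58 rows in microRNA hosts held at least 1 fragment. SNORA73B, in an intron of SNHG3, held 38, 36 and 65 fragments in TGF-β1 libraries and 27, 31 and 37 in controls. TGF-β1 2 lay below control 3, so the groups overlapped. SNORD1B, in an intron of SNHG16, held 0, 1 and 3 fragments in TGF-β1 libraries and 0, 0 and 4 in controls.

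The proteins that act on these small RNAs showed no call by limma in any list, over all 6 libraries and against 2.44% of all genes. At an unadjusted p under 0.05 there were 1 of 4 C/D proteins, 1 of 4 H/ACA proteins and 5 of 13 assembly factors, against 25.1% of all genes, and voom, which called 9.35% of all genes, called 0 in the C/D list, 1 lower in the H/ACA list, and 1 higher and 2 lower among the assembly factors. Among the 4 C/D proteins, the methyltransferase fibrillarin (FBL) averaged 74.3 ± 2.93 FPKM with TGF-β1 and 89.8 ± 10.2 FPKM in controls, with a limma adjusted p of 0.17 and of 0.020 without control 3. Among the 4 H/ACA proteins, NHP2 averaged 39.7 ± 10.2 FPKM with TGF-β1 and 64.5 ± 14.1 FPKM in controls, with an adjusted p of 0.13 and of 0.028 without control 3. The pseudouridine synthase DKC1 averaged 29.5 ± 0.515 FPKM with TGF-β1 and 27.6 ± 1.25 FPKM in controls, with an adjusted p of 0.50 and of 0.38 without control 3. Of 13 assembly factors, the ATPase RUVBL2 averaged 58.6 ± 6.71 FPKM with TGF-β1 and 77.5 ± 10.5 FPKM in controls, with an adjusted p of 0.11 and of 0.016 without control 3. Its co-chaperone RPAP3 averaged 7.42 ± 0.367 FPKM with TGF-β1 and 5.48 ± 0.776 FPKM in controls, with an adjusted p of 0.078 and of 0.0092 without control 3. The list medians were -0.10 for both protein groups and 0.10 for the assembly factors, and without control 3 these 3 lists held 3 higher and 5 lower calls in all, against 28.9% of all genes.

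Of 15 tested genes of microRNA processing and silencing, 0 passed by limma, 2 had an unadjusted p under 0.05, against 25.1% of all genes, and the median log2 change was 0.12. DICER1 averaged 3.97 ± 0.215 FPKM with TGF-β1 and 2.97 ± 0.693 FPKM in controls, with a limma adjusted p of 0.14 and of 0.019 without control 3. AGO2, the Argonaute that cleaves targets, averaged 12.4 ± 0.35 FPKM with TGF-β1 and 10.4 ± 1.68 FPKM in controls, with an adjusted p of 0.21 and of 0.055 without control 3. TARBP2 went the other way, at 7.59 ± 0.604 FPKM with TGF-β1 and 9.56 ± 1.82 FPKM in controls. Its limma adjusted p was 0.2, and 0.013 without control 3. Voom called 1 higher and 0 lower in the list, against 9.35% of all genes, and without control 3 it held 4 higher and 1 lower calls, against 28.9%. Of 18 genes of nonsense-mediated decay, 0 passed by limma, 1 had an unadjusted p under 0.05, against 25.1% of all genes, and voom called 0, against 9.35%. SMG1, the kinase of UPF1, averaged 3.69 ± 0.365 FPKM with TGF-β1 and 2.78 ± 0.736 FPKM in controls, with an adjusted p of 0.18 and of 0.022 without control 3. The median of the decay genes was -0.01, and without control 3 they held 2 higher and 1 lower calls, against 28.9% of all genes.

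Protein-coding genes that carry snoRNAs or microRNAs were compared with the non-coding hosts. Of 29 tested protein-coding snoRNA hosts 0 passed by limma and 12 had an unadjusted p under 0.05, against 25.1% of all genes. Voom called 8 lower and 0 higher, against 9.35% of all genes, and the median log2 change was -0.20. RPL27A, a protein of the large ribosomal subunit, averaged 73.5 ± 10.3 FPKM with TGF-β1 and 110 ± 19.8 FPKM in controls, with a limma adjusted p of 0.071 and of 0.011 without control 3. The summed level of the list was 8947, 8937 and 9482 FPKM in TGF-β1 libraries and 11300, 12310 and 9525 FPKM in controls. Control 3 lay just above the TGF-β1 libraries and far below the other controls, and without it the list held 1 higher and 12 lower calls, against 28.9% of all genes. Of 19 tested protein-coding microRNA hosts 0 passed by limma, 6 had an unadjusted p under 0.05, against 25.1% of all genes, voom called 2 higher and 1 lower, against 9.35%, and the median was -0.02. EGFL7, the host of miR-126, averaged 4.29 ± 0.704 FPKM with TGF-β1 and 8.13 ± 2.65 FPKM in controls, with an adjusted p of 0.13 and of 0.0054 without control 3. SMC4, a condensin subunit that carries miR-15b and miR-16-2, averaged 15.4 ± 0.067 FPKM with TGF-β1 and 11.5 ± 1.80 FPKM in controls, with an adjusted p of 0.078 and of 0.0066 without control 3. Without control 3 that list held 6 higher and 3 lower calls, against 28.9% of all genes. The difference between coding and non-coding hosts was not tested.

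**Figure D5:**
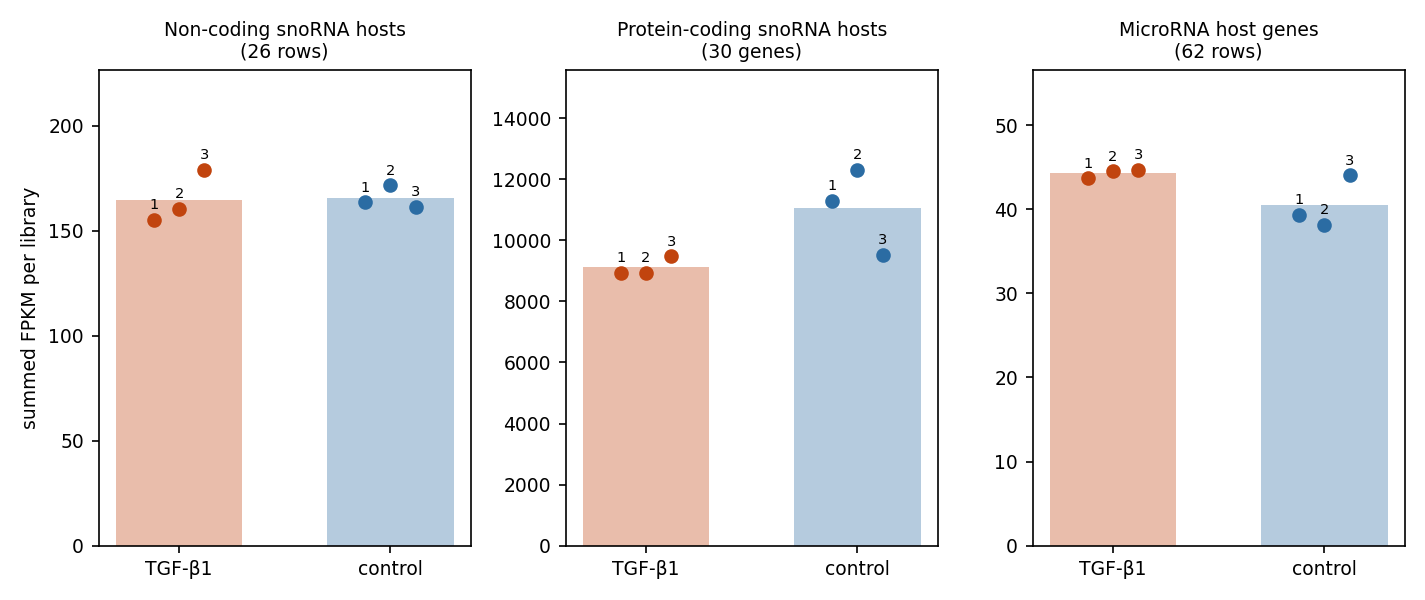
Summed FPKM per library (points, numbered by replicate; bars are group means, axes start at 0) of the non-coding snoRNA hosts, the protein-coding snoRNA hosts and the microRNA hosts, TGF-β1 left and control right. The non-coding snoRNA hosts overlap between the groups, while the protein-coding ones lie at 8937 to 9482 FPKM with TGF-β1 and 9525 to 12310 FPKM in controls.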

How the data were processed

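The authors deposited FPKM (fragments scaled to exon length and library total) for 58735 gene rows in 6 libraries. Per the submitters' processing notes, HISAT2 2.0.5, featureCounts 1.5.0-p3 and build hg38 were used; for the strand setting, library kit, annotation release and trimming the sources used here give nothing. Rows were matched by symbol to GENCODE 29 (58708 matched), and FPKM times exon length times 1 value per library gave whole fragments for 99.999% of 126561 values above 0, within 0.05 of a whole number. These gave the depths of 20724863 to 23704552 fragments. The floor of 3 fragments for a count of 0 covers counting error only.

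The test was limma 3.58.1 (R 4.3.3) on log2(FPKM + 1), TGF-β1 against control, with trended prior variance and robust estimation. It covered 11363 genes, those at 1 FPKM or more in 3 or more libraries. P-values were adjusted by Benjamini-Hochberg over all of them, with a threshold of 0.05. The scale understates changes of low genes. The script was tested on simulated data. Alternatives were other pseudocounts, filters and scalings, voom on whole fragments, removal of a loess trend with GC content and gene length, a replicate block, and leaving out each library. Members with a call, the 8 most abundant tested members of each class, and those with separate groups and a log2 change of at least 0.3 in size are given by library, with up to 4 genes of each list; some genes within this rule are not reported here. The members and lists were chosen with earlier results of these data known. No libraries were duplicates: within groups, chi-square per degree of freedom was 6.49 to 28.9. No value was missing or imputed.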

Additional observations from a re-analysis of the deposited data

How the results depend on the processing

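Over all alternatives, 229 of the values of single members kept their direction and their side of the threshold, 9 passed it where they had not, 3 no longer passed it, and 25 changed sign, none of them past the threshold in either setting. The 3 were MIR181A2HG with no filter (limma adjusted p 0.11), by voom (0.085) and by voom with at least 10 fragments (0.091), and at a minimum of 5 FPKM it was not tested. On leaving out 1 library its adjusted p was 0.0086 to 0.038. Counts of calls are given as snoRNA hosts, microRNA hosts and all genes tested, from 0, 1 and 277. They were 0, 0 and 15 with no filter, 0, 0 and 500 at a minimum of 5 FPKM, 1, 0 and 1058 by voom, and 1, 0 and 1131 by voom with at least 10 fragments. With the GC and length trend removed they were 0, 1 and 493. Without control 3 and with that trend removed, a setting chosen after seeing the data, they were 2 (SNHG16 higher, GAS5 lower), 1 and 785. On leaving out 1 library the counts ranged from 0 to 1, from 1 to 3 and from 124 to 3280; the 3280 were without control 3, where SNHG16, MIR3142HG and MIR210HG passed, and the others were 330 or fewer. Without control 1 it was 124, without control 2 176, and without TGF-β1 2 or TGF-β1 3 152 each. Another pseudocount, quantile scaling, equal FPKM sums, and no trend or robust estimation kept both counts of members.

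With the replicate number as a block the counts were 2 (SNHG16 higher, SNHG19 lower), 1 and 767. Same-numbered libraries deviated together with correlations of 0.254, -0.071 and 0.17, so the numbers were not taken to pair the samples. The cause of each change in count was not tested. MIR181A2HG rested on 14 to 37 fragments a library, which limits its precision.

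The changes of sign were in these log2 changes. With the GC and length trend removed MIR137HG was -0.018, MIR4435-2HG -0.018, MIR222HG -0.005, MIR4458HG -0.105, SNHG6 -0.041, SNHG8 0.007 and SNHG1 -0.02. With that trend and control 3 both removed MIR4435-2HG was -0.026, MIR4458HG -0.139, SNHG6 -0.107, SNHG3 -0.009 and SNHG1 -0.008. Quantile scaling gave SNHG8 0.004, and equal FPKM sums gave SNHG8 0.048 and SNHG4 0.068. On leaving out 1 library SNHG6 ranged from -0.089 to 0.105, SNHG8 from -0.186 to 0.095, SNHG4 from -0.042 to 0.049, SNHG1 from -0.014 to 0.102 and MIR4458HG from -0.022 to 0.089.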
